A study of Mus musculus with 21 samples.

Results

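The transcriptomes of 2-cell-like cells (2CLCs) and epiblast stem cells (EpiSCs) were compared, which places a totipotent-like state of mouse cells beside a primed pluripotent state. The members are the 6 libraries whose labels name these cell types, 3 of 2CLCs and 3 of EpiSCs, of 21 libraries in the series, and all gene names of the cell-state table were compared between them. Every library is labelled as the mouse cell line OG2 with WT as its treatment, so the groups share line, genotype label and treatment label and differ in the labelled cell type alone. The labels give Trizol for the isolation of total RNA, a TruSeq RNA kit for the libraries and a MiSeq for sequencing. The labels do not say how the 2CLCs were obtained or sorted, how the EpiSCs were derived or cultured, or whether the replicates are separate cultures. The p-values therefore rest on the spread between libraries, which may be technical. The same table holds 3 libraries each of embryonic stem cells (ESCs) and mouse embryonic fibroblasts (MEFs), and the ESC level is given beside some genes as a description. Both of these groups also entered the filter and the shared estimate of the spread behind the p-values. Values are FPKM (fragments scaled to transcript length and to the mapped fragments of a library) as the authors deposited them, and the number of reads behind each library is unknown. Where 3 values are given for a state, they are its libraries in the order of replicates 1, 2 and 3.

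2CLCs are a rare state in cultures of mouse ESCs in which transcripts of the 2-cell embryo are made again, among them the Zscan4 family and genes that start in the long terminal repeats of the retrovirus MERVL, under the homeobox factor DUX. EpiSCs come from the epiblast after implantation and stand for primed pluripotency. They keep Oct4 (Pou5f1), have lost most naive factors, and depend on FGF and Activin/Nodal signals, while ESCs in the naive state rest on LIF, STAT3 and factors such as Esrrb and Klf4.

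The libraries carried differences that bear on the results. The Y-linked genes separated the groups completely. Ddx3y, an RNA helicase gene on the Y chromosome, was listed at 0 in all 3 2CLC libraries and measured 22.8, 13.2 and 13.5 FPKM in EpiSCs. Eif2s3y, which encodes a translation initiation factor subunit, was listed at 0 in all 3 2CLC libraries and measured 35.1, 24.5 and 22 FPKM in EpiSCs. Kdm5d, Uty and Zfy1 were also listed at 0 in the 3 2CLC libraries, against 4.2 to 5.74, 7.1 to 8.17 and 0.372 to 0.581 FPKM in EpiSCs, while the ESC libraries stood at 1.77 ± 0.0984 FPKM for Ddx3y. Xist, the RNA that coats the inactive X chromosome, stood at 0.23 to 0.696 FPKM in 2CLCs and 0.0891 to 0.199 in EpiSCs, low in both. All of these libraries are labelled OG2, and cell state and origin of the cells cannot be told apart on the Y-linked genes. EpiSC replicate 1 stood apart from the other EpiSC libraries: 406 tested genes at 5 FPKM or more in both others stood below 1/2 of the lower of them in replicate 1, and 218 genes stood above 2 times the higher. The Pearson correlations of log2 values were 0.973 for both pairs with replicate 1 and 0.995 for replicates 2 and 3, against 0.989 to 0.991 among the 2CLC libraries. RNAs that carry no poly(A) tail stood higher in 2CLCs. A written list of 16 such RNAs, replication-dependent histone and small structural RNAs, summed to 339.8 to 372 FPKM in 2CLCs and 16.9 to 47.5 in EpiSCs. The list does not hold every such RNA that was measured. Rn7sk, a small nuclear RNA that holds back transcription elongation, measured 51.9, 44.9 and 68.4 FPKM in 2CLCs against 2.51, 7.4 and 5.54 in EpiSCs, and the part of RNA selection in other results was not tested. The 30 fibroblast markers summed to 183 to 196 FPKM in 2CLCs, 211 to 281 in EpiSCs and 6696 to 6767 in MEFs, and Col1a1, a defining member, stood at 0.291 to 0.855 and 0.574 to 1.02 FPKM.

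Most genes differed between the states. Of 16358 genes tested with limma on log2(FPKM + 1), 13428 (82.1%) passed at an adjusted p under 0.05: 3823 (23.4%) were higher in 2CLCs and 9605 (58.7%) were lower. The libraries of the groups did not overlap for 13185 (80.6%). With a minimum difference of 1 (log2), 2472 genes (15.1%) were higher and 5542 (33.9%) were lower. The median difference over all tested genes was -0.55, so a typical gene stood lower in 2CLCs on the deposited scale. Under median-of-ratios scaling that median moved to 0.045, and the split became 6814 genes higher (41.7%) and 5916 lower (36.2%), while quantile normalization gave a median of -0.27, with 4793 genes higher (29.3%) and 8173 lower (50%). Each difference below is the 2CLC mean minus the EpiSC mean of log2(FPKM + 1). Genes near 0 change by more than this scale shows, and a direction that turns under another scaling is named as such. In bulk RNA, fewer cells of a type and less RNA per cell cannot be told apart, and the share of cells in the 2C-like state was not measured.

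**Figure D1:**
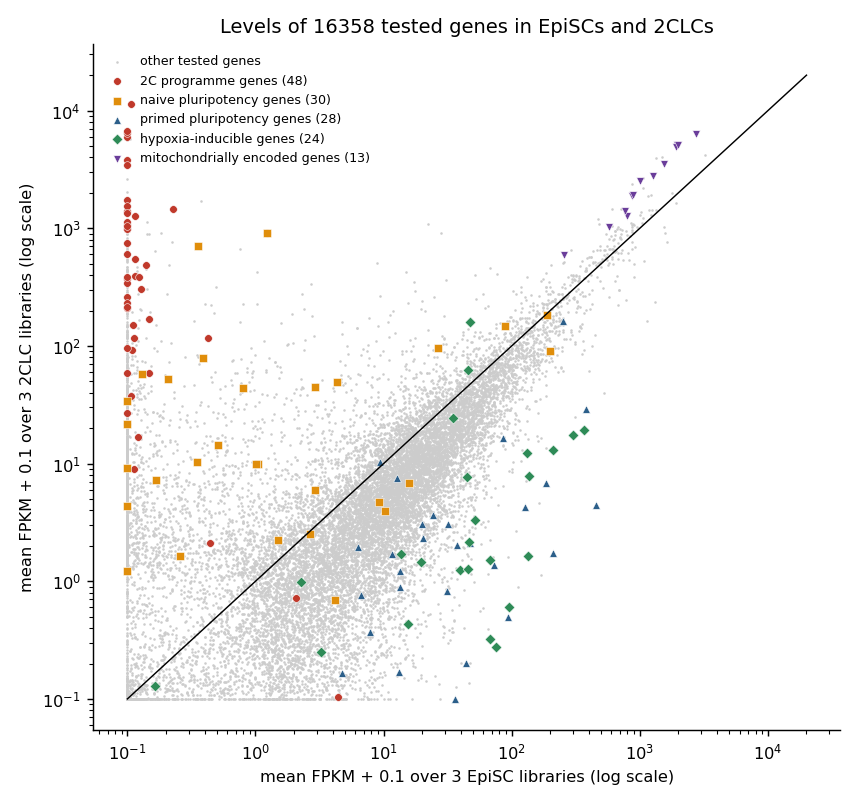
Mean FPKM + 0.1 of each tested gene over 3 EpiSC libraries (horizontal, log scale) and 3 2CLC libraries (vertical, log scale), with members of 5 gene lists coloured and the line of equal levels drawn. The 2C programme genes stand along the left edge at up to 11405 FPKM in 2CLCs, the primed and hypoxia-inducible genes lie mostly below the line, and the 13 mitochondrially encoded genes lie just above it at the highest EpiSC levels.

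The 2 states also differed in which genes were on at all. With at least 5 FPKM in all 3 libraries counted as on and at most 0.5 FPKM in all 3 as off, 820 genes were on in 2CLCs and off in EpiSCs, and 180 were on in EpiSCs and off in 2CLCs. ESCs had a mean of 5 FPKM or more for 60 of the 820 and for 5 of the 180, so most genes of both sets stood low in ESCs too. Of the 820, 779 could be placed with GENCODE M21, and among these 44.8% were protein coding, 19.9% long non-coding and 30% pseudogenes, against 81.8%, 6.56% and 9.46% of the tested genes. A single exon in every annotated transcript was found for 34.1% of the 779 and for 13.2% of the tested genes. The EpiSC set was of another make: 96.1% of its 180 genes were protein coding, 0 were pseudogenes and 1 had a single exon. The most abundant genes of the EpiSC set included Slc39a8, a zinc and manganese transporter, which measured 0, 0.0436 and 0.0664 FPKM in 2CLCs against 60.5, 41.1 and 38.5 in EpiSCs, with a difference of -5.50 (SE 0.14, adjusted p = 1.9e-11). Many genes of the 2CLC set belong to families of near-identical copies, so how reads were split among the copies is uncertain.

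Factors known to switch on the 2C programme were mostly higher in 2CLCs. Of 15 activators, 10 were higher and 5 lower, against 23.4% and 58.7% of all tested genes, and their median difference was 1.89. However, 3 of the 15 were listed at 0 in every EpiSC library and could not be lower. The count is thus a description and not a test. Duxf3, the mouse Dux gene at chr10:58229979-58232675 (GRCm38), measured 62.3, 59.4 and 71.7 FPKM in 2CLCs against 0.00295, 0 and 0 in EpiSCs. Its 2CLC values lay far above the EpiSC values, and ESCs stood at 0.0897 ± 0.0208 FPKM. Dppa2, a chromatin factor upstream of Dux, measured 245, 229 and 208 FPKM in 2CLCs against 0.628, 0.612 and 0.841 in EpiSCs, a difference of 7.07 (SE 0.079, adjusted p = 1.5e-14). Its partner Dppa4 differed less and measured 44, 42.8 and 42 FPKM in 2CLCs against 12.1, 14.2 and 13.9 in EpiSCs, a difference of 1.61 (SE 0.065, adjusted p = 8.6e-10). ESCs held 54.7 ± 3.21 FPKM of Dppa2 and 67.1 ± 2.8 FPKM of Dppa4, so EpiSCs had the lowest level of both genes among the 3 pluripotent states. Nelfa, a subunit of the complex that pauses RNA polymerase and a maternal 2C factor, measured 902, 937 and 883 FPKM in 2CLCs against 30.4, 26.4 and 26.5 in EpiSCs, a difference of 4.98 (SE 0.06, adjusted p = 2.4e-14). ESCs stood at 28.8 ± 0.293 FPKM for Nelfa, within reach of the EpiSC values, so its high level was seen in 2CLCs alone of these 3 states. The homeobox genes Obox3 and Obox5 were listed at 0 in every EpiSC library and stood at 12.5 to 18.4 and 2.43 to 3.15 FPKM in 2CLCs. Klf17 stood at 3.89 to 5.05 FPKM in 2CLCs and at most 0.0572 in EpiSCs. Dppa3 (Stella), a maternal factor, measured 9.14, 9.58 and 8.65 FPKM in 2CLCs and was listed at 0 in all 3 EpiSC libraries. Nr5a2, an orphan nuclear receptor, measured 7.29, 7.09 and 6.94 FPKM in 2CLCs against 0.0291, 0.0675 and 0.102 in EpiSCs, and ESCs held more of it, 26.3 ± 0.565 FPKM. The 5 lower members were Tfap2c, which stood at 0.37 to 0.656 FPKM in 2CLCs and 1.56 to 6.09 in EpiSCs, Nfyb, Nfyc, Rarg and Trp53, of which Nfyc and Trp53 turned to higher under median-of-ratios scaling. The Nfyc call was lost without 2CLC replicate 2 (-0.42, adjusted p = 0.062) or without 2CLC replicate 3 (-0.44, adjusted p = 0.051). It was also lost under quantile normalization (-0.11, adjusted p = 0.52) and in a fit of only the 2 groups (-0.45, adjusted p = 0.077).

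The 2C programme itself had the highest median of the 37 gene lists. Of 48 tested members, 46 were higher in 2CLCs (95.8%) and 2 were lower (4.17%), against 23.4% and 58.7% of all tested genes. Their median difference was 8.58, against -0.55 over all tested genes, and 27 were listed at 0 in all 3 EpiSC libraries. Those 27 could not be lower. The list's median level, in log2(FPKM + 1), was 0 in EpiSCs and MEFs and 0.34 in ESCs. Many members thus passed the filter (1 FPKM in 3 of 12 libraries) through 2CLCs alone, so the count is a description and not a test. The list took 11.4% ± 0.608 (SD, n = 3) of all FPKM in 2CLCs, 0.0273% ± 0.000799 in ESCs and 0.00214% ± 0.000395 in EpiSCs. Leaving out predicted genes and clone names, the 12 genes with the largest differences were 9 Zscan4 copies, Usp17le, Tcstv3 and Eif4a3l1. Zscan4c, a telomere-associated zinc finger gene at chr7:11005745-11010547, measured 5581, 5844 and 6297 FPKM in 2CLCs and was listed at 0 in all 3 EpiSC libraries. Zscan4f, at chr7:11397915-11402318 on the same chromosome, measured 10687, 10875 and 12654 FPKM in 2CLCs against 0.0188, 0 and 0 in EpiSCs. Zscan4d, the copy known from the 2-cell embryo, measured 3233, 3345 and 3756 FPKM in 2CLCs and was listed at 0 in all 3 EpiSC libraries. These copies are near-identical, so the order of their levels is uncertain, while every copy was far above 0 in each 2CLC library and at or next to 0 in EpiSCs. Tcstv3, another 2-cell transcript, measured 1078, 1143 and 998 FPKM in 2CLCs and was listed at 0 in all 3 EpiSC libraries. Usp17le, a deubiquitinase of a multicopy family, measured 1421, 1428 and 1551 FPKM in 2CLCs against 0.232, 0.0791 and 0.0732 in EpiSCs. For these as for the Zscan4 copies, nearly all signal of the 6 libraries lay in 2CLCs. Zfp352, a zinc finger gene at chr4:90218820-90225702, measured 221, 218 and 197 FPKM in 2CLCs and was listed at 0 in all 3 EpiSC libraries. Eif4a3l1, a copy of the exon junction helicase gene, measured 939.6, 963 and 817 FPKM in 2CLCs against 0.0551, 0.136 and 0.0626 in EpiSCs. The 2 lower members were Eif4e3, a cap-binding protein gene, which stood at 0 to 0.0108 FPKM in 2CLCs and 3.57 to 4.91 in EpiSCs, and Zfp750, at 0.463 to 0.737 and 0.569 to 2.65. The Zfp750 call was lost without 2CLC replicate 1 (adjusted p = 0.056) and under median-of-ratios scaling (-0.35, adjusted p = 0.20).

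The stretches before the starts of 4 Zscan4 copies are shown because they are the only 2C members whose upstream bases hold the inverted repeat TGATTNNATCA, a form of the DUX motif. It is matched here on the strand opposite to the gene. RefSeq start sites (GRCm38.p6) were found for 10942 of the 16358 tested genes and for 21 of the 48 tested 2C genes, and 250 bases before each start were searched on both strands. The repeat stood in 4 of the 21 2C genes (19%) and in 16 of all 10942 (0.146%). Capitals mark the match, read 5′ to 3′ along the gene, and each window holds 80 bases: chr7:10905097-10905176 (minus strand), chr7:11005596-11005675 (plus), chr7:11166229-11166308 (minus) and chr7:11397789-11397868 (plus).
Zscan4b: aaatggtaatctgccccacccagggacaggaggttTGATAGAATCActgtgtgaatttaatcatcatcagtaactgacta
Zscan4c: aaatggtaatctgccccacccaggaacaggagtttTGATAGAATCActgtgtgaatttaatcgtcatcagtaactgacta
Zscan4d: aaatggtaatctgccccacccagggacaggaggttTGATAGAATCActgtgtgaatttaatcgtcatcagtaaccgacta
Zscan4f: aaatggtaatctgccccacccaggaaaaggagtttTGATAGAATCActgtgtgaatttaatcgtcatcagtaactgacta
Between any pair of these windows 76 to 79 of 80 bases were the same, so they count as near-copies of a single stretch and not as 4 independent matches.

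Zfp352 is shown for a second motif, TAATCC, the core bound by paired-type homeobox factors such as OTX2 and the OBOX family. It stood in the upstream bases of 8 of the 21 2C genes (38.1%), in 5 of 21 glycolysis genes (23.8%), in 3 of 19 primed genes (15.8%) and in 708 of all 10942 (6.47%). Some of the 8 belong to multicopy families, so they need not be independent matches, and their upstream bases were not compared. In Zfp352, 220 bases at chr4:90218570-90218789 (plus strand) held 9 matches, from 227 to 61 bases before the start, within a repeated unit. Capitals mark the matches.
Zfp352: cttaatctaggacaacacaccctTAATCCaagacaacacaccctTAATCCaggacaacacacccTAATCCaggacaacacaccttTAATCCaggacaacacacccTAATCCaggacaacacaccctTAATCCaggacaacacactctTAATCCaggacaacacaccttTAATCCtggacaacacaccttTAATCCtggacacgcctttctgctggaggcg
A match describes these letters and is not a measured site. Beside it, Obox1, Obox2, Obox3, Obox5 and Obox6 were listed at 0 in all EpiSC libraries, and Otx2 measured 0.493, 0.0675 and 0.625 FPKM in 2CLCs against 76.6, 98 and 105 in EpiSCs.

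Oocyte and germline genes stood higher in 2CLCs. Of 29 oocyte and maternal genes written down, 10 are in the table and 9 were tested. Of these 8 were higher (88.9%) and none lower, against 23.4% and 58.7% of all tested genes. However, 7 of the 9 were listed at 0 in every EpiSC library. They could not be lower, and they passed the filter only through states other than EpiSCs. Obox6 reached 19.8 FPKM in 2CLCs, and Obox2 stood at 11.1 to 15.5 and Obox1 at 10.8 to 14. Khdc3 and Ooep, parts of the maternal complex beneath the oocyte membrane, stood at 10.4 to 12.6 and 11.4 to 11.8 FPKM in 2CLCs, and Ooep was at 18.4 ± 0.821 FPKM in ESCs. The zona pellucida gene Zp3 measured 4.48, 4.11 and 3.38 FPKM in 2CLCs and was listed at 0 in all 3 EpiSC libraries. Of 18 tested germline genes 15 were higher (83.3%, against 23.4% of all tested genes) and none lower, with a median difference of 1.56. Here 6 of the 18 were listed at 0 in every EpiSC library. They could not be lower and passed the filter only through other states, so this count is a description and not a test. Dazl, an RNA-binding protein gene of germ cells, measured 11.8, 12 and 11 FPKM in 2CLCs and was listed at 0 in all 3 EpiSC libraries. Rpl10l, a ribosomal protein gene without introns that replaces the X-linked copy in male meiosis, measured 149, 153 and 151 FPKM in 2CLCs against 0.135, 0 and 0.0713 in EpiSCs, a difference of 7.16 (SE 0.063, adjusted p = 3.1e-15), and ESCs held 44.6 ± 1.53 FPKM. Tex19.1, which guards the germline genome against retrotransposons, measured 42.5, 46.2 and 44.1 FPKM in 2CLCs against 4.32, 0.941 and 1.32 in EpiSCs, a difference of 3.97 (SE 0.28, adjusted p = 1.2e-07). Tdrd12, a piRNA pathway gene, stood at 21.6 to 26.4 FPKM in 2CLCs and 0.645 to 1.78 in EpiSCs, and the meiotic genes Stk31, Hormad1 and Syce1 were listed at 0 in EpiSCs and stood between 2.97 and 5.62 FPKM in 2CLCs. The germline set was not silent in ESCs, where Ddx4, a germ cell helicase gene, stood at 4.8 ± 0.428 FPKM against 1.28 to 1.93 in 2CLCs and 0 to 0.141 in EpiSCs.

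Repressors of the 2C state went in both directions, at shares close to those of all tested genes. Of 34 members 8 were higher (23.5%) and 21 lower (61.8%), against 23.4% and 58.7% of all genes, with a median of -0.53 against -0.55 that turned to 0.33 under median-of-ratios scaling, where 18 were higher and 12 lower. Trim28, the corepressor of KRAB zinc finger proteins, measured 678, 661 and 625 FPKM in 2CLCs against 308, 278 and 284 in EpiSCs, a difference of 1.17 (SE 0.055, adjusted p = 3e-09), and ESCs held 627 ± 9.56 FPKM. Rif1, which restrains Dux and Zscan4 in ESCs, differed by 0.96 (SE 0.2, adjusted p = 0.0008) and stood at 50.7 to 56.6 FPKM in 2CLCs and 21.5 to 41.9 in EpiSCs. Among the widest gaps on the lower side were E2f6, Mga and Max, subunits of a non-canonical Polycomb complex, with Myc and Kat5. Myc, the partner of MAX, measured 1.4, 1.44 and 2 FPKM in 2CLCs against 68.4, 33.2 and 33.1 in EpiSCs, a difference of -4.06 (SE 0.22, adjusted p = 1.2e-08). E2f6, a repressor of the E2F family, measured 1.38, 1.1 and 1.99 FPKM in 2CLCs against 33.5, 17.1 and 17.7 in EpiSCs, a difference of -3.20 (SE 0.22, adjusted p = 8e-08). Mga stood at 4.99 to 6.71 FPKM in 2CLCs and 21.2 to 25.1 in EpiSCs, Max at 9.31 to 9.93 and 39.7 to 41.7, and the acetyltransferase gene Kat5 at 3.95 to 4.19 and 27.6 to 29.8. ESCs held 42 ± 1.77 FPKM of Myc and 20.8 ± 1.19 FPKM of Kat5, so for both genes the 2CLCs were the low state. Chaf1a, the large subunit of the histone chaperone whose loss gives 2C-like cells in culture, measured 12.1, 10.9 and 11.7 FPKM in 2CLCs against 27.9, 21.7 and 21.5 in EpiSCs, a difference of -0.96 (SE 0.091, adjusted p = 1.4e-06) that came to -0.14 under median-of-ratios scaling.

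Most naive pluripotency genes stood higher in 2CLCs than in EpiSCs. Of 30 members 22 were higher (73.3%) and 5 lower (16.7%), against 23.4% and 58.7% of all tested genes. Their median difference was 2.50. Of the 30, 5 were listed at 0 in every EpiSC library, so they could not be lower. The median level of the list, in log2(FPKM + 1), was 3.71 in 2CLCs, 0.93 in EpiSCs and 5.74 in ESCs, so the 2CLC level lay between the others. Zfp42 (Rex1) measured 55.5, 56.6 and 61.6 FPKM in 2CLCs against 0.0922, 0 and 0 in EpiSCs. Esrrb, an orphan nuclear receptor, measured 39.7, 37.9 and 53 FPKM in 2CLCs against 0.398, 0.75 and 0.949 in EpiSCs, a difference of 4.71 (SE 0.13, adjusted p = 4.4e-11). Klf4 measured 9.44, 9.36 and 10.8 FPKM in 2CLCs against 0.466, 1.08 and 1.3 in EpiSCs, a difference of 2.50 (SE 0.14, adjusted p = 1.1e-08). For these 3 genes no 2CLC value overlapped an EpiSC value, yet ESCs stood far higher than both, at 318 ± 1.37 FPKM, 285 ± 5.79 FPKM and 69.4 ± 1.16 FPKM. Tfcp2l1, a target of STAT3, showed the same order, with 13 to 16.5 FPKM in 2CLCs, 0.288 to 0.475 in EpiSCs and 59.6 ± 2.28 FPKM in ESCs. The orphan receptor Nr0b1 and the T-box factor Tbx3 were listed at 0 in EpiSCs and stood at 29.4 to 40.8 and 20.5 to 22.2 FPKM in 2CLCs. A second pattern had the 2CLC level at or above that of ESCs. Dppa5a, an RNA-binding protein gene of early embryos, measured 728, 754 and 628 FPKM in 2CLCs against 0, 0.403 and 0.374 in EpiSCs, a difference of 9.14 (SE 0.12, adjusted p = 3.9e-14), with ESCs at 513 ± 1.76 FPKM. Fbxo15, an F-box gene and OCT4 target that is also on the 2C list, measured 868, 868 and 987 FPKM in 2CLCs against 0.878, 1.34 and 1.19 in EpiSCs, a difference of 8.74 (SE 0.087, adjusted p = 6.7e-15), with ESCs at 51.7 ± 0.682 FPKM. The lower members were the LIF coreceptor gene Il6st, Stat3, Tdgf1, Fgf4 and Trim8. Il6st stood at 0.368 to 0.911 FPKM in 2CLCs and 3.83 to 4.48 in EpiSCs. Stat3 stood at 3.39 to 4.67 and 4.89 to 13.1, and its call, like those of Fgf4 and Trim8, was lost under median-of-ratios scaling.

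Core pluripotency genes went in both directions. Of 20 members 5 were higher (25%, near the 23.4% of all tested genes) and 14 lower (70%, against 58.7%). The median was -1.18 (-0.34 under median-of-ratios scaling, where 8 were higher and 9 lower). Pou5f1 (Oct4) measured 533, 553 and 571 FPKM in 2CLCs against 576, 720.0 and 736 in EpiSCs. Its difference of -0.29 (SE 0.08, adjusted p = 0.0063) turned to 0.59 under median-of-ratios scaling. The groups did not overlap for Pou5f1, but the gap was small against the spread of the EpiSC libraries. Sox2, the DNA-binding partner of OCT4, measured 16.3, 18.7 and 24.8 FPKM in 2CLCs against 49.7, 29.2 and 31.1 in EpiSCs, a difference of -0.83 (SE 0.19, adjusted p = 0.0019) that turned to 0.02 under the same scaling. Nanog measured 116, 113 and 114 FPKM in 2CLCs against 36, 25.2 and 26.6 in EpiSCs, a difference of 1.95 (SE 0.1, adjusted p = 1e-08). Sall4, a zinc finger factor, measured 91.8, 95.9 and 77.9 FPKM in 2CLCs against 45.2, 21.3 and 22.2 in EpiSCs, a difference of 1.63 (SE 0.22, adjusted p = 3.2e-05). For Nanog and Sall4 all 2CLC values were above all EpiSC values. Gdf3, a TGF-beta ligand gene, measured 21.8, 23.3 and 23.3 FPKM in 2CLCs against 2.02, 0.254 and 0.251 in EpiSCs, a difference of 3.82 (SE 0.27, adjusted p = 9.5e-08). The lower genes included both LIN28 genes, which block maturation of let-7 microRNAs. Lin28a measured 6.8, 6.01 and 8.04 FPKM in 2CLCs against 162, 111 and 114 in EpiSCs, a difference of -4.02 (SE 0.13, adjusted p = 1.6e-10), and Lin28b measured 0.967, 0.7 and 0.498 FPKM in 2CLCs against 26.5, 16.5 and 16 in EpiSCs. Utf1, a chromatin factor gene, measured 23.6, 23.5 and 27.1 FPKM in 2CLCs against 313, 316 and 313 in EpiSCs, a difference of -3.62 (SE 0.056, adjusted p = 2e-13). ESCs stood at 117 ± 3.04 FPKM for Lin28a and 210.4 ± 3.76 FPKM for Utf1, near the EpiSC levels, so in both genes 2CLCs were the state that stood low.

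**Figure D2:**
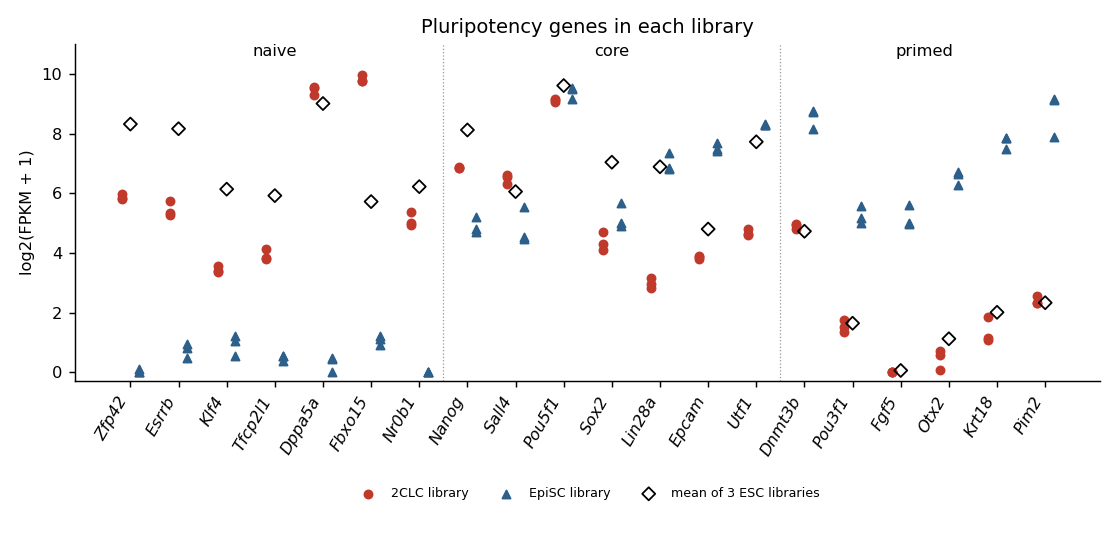
log2(FPKM + 1) of 20 pluripotency genes in each 2CLC library (circles) and EpiSC library (triangles), with the mean of 3 ESC libraries (diamonds), ordered as naive, core and primed genes. The naive genes shown stand higher in 2CLCs and near 0 in EpiSCs, while 5 of the 30 members of the naive list were lower in 2CLCs. Pou5f1 stands at 533 to 736 FPKM in both states, and from Lin28a on the EpiSC values lie above all 2CLC values.

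Primed pluripotency genes were lower in 2CLCs almost without exception. Of 28 tested members 27 were lower (96.4%, against 58.7% of all tested genes), none was higher, and Lefty2 did not pass. The median difference of the list was -2.96. Under median-of-ratios scaling 25 were lower and Lefty2 passed as higher (0.87, adjusted p = 0.0085). Under quantile normalization 26 were lower and Lefty2 again passed as higher (0.65, adjusted p = 0.025). Without EpiSC replicate 1, 22 of the 23 members then tested were lower. The members that fell out had passed the filter only with that EpiSC library counted. The count of 27 is therefore a description and not a test. Otx2, the homeobox factor that drives exit from the naive state, had a difference of -6.09 (SE 0.16, adjusted p = 1.7e-11) and an ESC level of 1.18 ± 0.124 FPKM. Fgf5, the marker ligand of the epiblast after implantation, was listed at 0 in all 3 2CLC libraries and measured 47.7, 30.9 and 30.1 FPKM in EpiSCs. Pou3f1 (Oct6) measured 2.34, 1.85 and 1.55 FPKM in 2CLCs against 46.8, 31.1 and 34.8 in EpiSCs, a difference of -3.71 (SE 0.14, adjusted p = 4.5e-10). Dnmt3b, a de novo DNA methyltransferase gene, measured 30, 29.3 and 27.1 FPKM in 2CLCs against 282, 424 and 433 in EpiSCs, a difference of -3.65 (SE 0.14, adjusted p = 5.4e-10). ESCs held 25.5 ± 0.804 FPKM of Dnmt3b, close to the 2CLC level, and 2.13 ± 0.0335 FPKM of Pou3f1. The largest differences were in genes of other functions. Krt18, an intermediate filament gene of epithelia, measured 1.1, 1.22 and 2.64 FPKM in 2CLCs against 176, 229 and 228 in EpiSCs, a difference of -6.36 (SE 0.2, adjusted p = 8.7e-11). Pim2, a serine/threonine kinase gene, measured 4.88, 3.99 and 4.04 FPKM in 2CLCs against 236, 562 and 568 in EpiSCs, a difference of -6.32 (SE 0.27, adjusted p = 1.2e-09). Car14, a carbonic anhydrase gene, stood at 0 to 0.161 FPKM in 2CLCs and 26 to 53.7 in EpiSCs. EpiSC replicate 1 was the low EpiSC library for Pim2 and Car14 and the high one for Fgf5 and Lefty1, and Lefty1, an inhibitor of Nodal, measured 1.14, 0.953 and 1.71 FPKM in 2CLCs against 151, 32.8 and 35.7 in EpiSCs.

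Markers of lineages beyond pluripotency did not share a direction. Of 15 mesoderm and streak markers in the table, 8 were tested. Of these 5 were lower (62.5%) and 2 higher (25%), near the 58.7% and 23.4% of all tested genes. The sum of the 15 was 3.07 to 3.64 FPKM in 2CLCs and 28.4 to 30 in EpiSCs. T (Brachyury), the streak factor, measured 0, 0 and 0.091 FPKM in 2CLCs against 7.99, 6.69 and 7.24 in EpiSCs, a difference of -3.01. Wnt3, a signal that starts the streak, was listed at 0 in all 3 2CLC libraries and measured 5.94, 9.01 and 8.87 FPKM in EpiSCs. Of 5 tested neural markers 2 were lower (40%) and 2 higher (40%). Nes, an intermediate filament gene of neural progenitors, measured 3.29, 3.99 and 3.27 FPKM in 2CLCs against 54.2, 38.3 and 37.5 in EpiSCs, a difference of -3.28 (SE 0.12, adjusted p = 4.9e-10). The definitive neural factor gene Pax6 stood at no more than 0.565 FPKM in any of the 6 libraries. Trophectoderm markers (10 tested) had 4 members higher (40%) and 5 lower (50%). Cdx2 stood at 0.054 to 0.2 FPKM in 2CLCs and was listed at 0 in EpiSCs. Primitive endoderm markers (9 tested) had 4 higher (44.4%) and 3 lower (33.3%). They summed to 124 to 136 FPKM in 2CLCs, 132 to 157 in EpiSCs and 88.7 to 97.2 in ESCs. Most of that sum was Sparc, a matrix protein gene that fibroblasts also express, at 100.4 to 110.5 FPKM in 2CLCs and 67.6 to 97.2 in EpiSCs. The higher factor gene Sox17 stood at 1.08 to 1.77 and 0.0256 to 0.144 FPKM, while Sox7 was listed at 0 in all 6 libraries and Gata4 stood at no more than 0.457. Of 30 fibroblast markers 3 were higher (10%) and 16 lower (53.3%, against 58.7% of all tested genes), at sums far below that of MEFs.

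FGF and ERK signalling genes were mostly lower in 2CLCs: 27 of 31 tested members were lower (87.1%, against 58.7% of all tested genes) and 3 higher, with a median of -1.66. Under median-of-ratios scaling 20 were lower and 5 higher, with a median of -0.84. Besides the ligand Fgf5, ERK targets and feedback inhibitors showed the widest gaps. Dusp6, the ERK phosphatase gene, measured 0.768, 0.611 and 1.01 FPKM in 2CLCs against 104, 114 and 120.0 in EpiSCs, a difference of -5.99 (SE 0.087, adjusted p = 1.2e-13), with ESCs at 28.1 ± 2.19 FPKM. Egr1, an immediate early gene, measured 0.607, 1.03 and 1.17 FPKM in 2CLCs against 36.5, 37.6 and 37.8 in EpiSCs, a difference of -4.32 (SE 0.1, adjusted p = 8e-12), while ESCs had 0.241 ± 0.00805 FPKM. The groups were far apart in both genes and the 3 libraries of each group were close. Several other feedback inhibitor genes were lower as well, but Spry2, also a feedback inhibitor gene, was higher. Spry4 stood at 0.942 to 1.9 FPKM in 2CLCs and 6.86 to 9.75 in EpiSCs, and Spry1 at 0.885 to 1.04 and 11.8 to 15. Spred1 stood at 1.16 to 1.56 and 16.5 to 25.2, and Il17rd at 1.02 to 1.54 and 21.9 to 23. Among ligands, Fgf4 measured 5.35, 6.35 and 8.46 FPKM in 2CLCs against 26.8, 10.1 and 10.1 in EpiSCs, a difference of -0.99 (SE 0.29, adjusted p = 0.0089) that came to -0.20 under median-of-ratios scaling, and Fgf15 stood at 0.462 to 1.15 and 8.47 to 22.1 FPKM. The higher members were Grb2, Spry2 and Fgf10, and the Fgf10 call was lost with a pseudocount of 5 (adjusted p = 0.084). Grb2, the adaptor between receptors and RAS, measured 86.2, 92.8 and 64.3 FPKM in 2CLCs against 32.3, 22.3 and 23.9 in EpiSCs, a difference of 1.60 (SE 0.14, adjusted p = 9.7e-07).

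In the Nodal and BMP pathway 21 of 29 tested members were lower (72.4%, against 58.7% of all tested genes) and 4 higher (13.8%, against 23.4%), and under median-of-ratios scaling 18 were lower and 6 higher. The ligand gene Nodal measured 3.05, 3.21 and 4.47 FPKM in 2CLCs against 32.8, 19.4 and 19.9 in EpiSCs, a difference of -2.43 (SE 0.18, adjusted p = 1.4e-07). Its receptor gene Acvr1b stood at 0.939 to 1.3 FPKM in 2CLCs and 13 to 14.6 in EpiSCs, and Smad3, the mediator inside the cell, at 0.214 to 0.373 and 9.08 to 15.4. Skil, a target and inhibitor of SMAD signals, stood at 3.3 to 3.77 and 38.4 to 42.7. Lower members thus stood at several steps of the pathway, but not in every class: Gdf3, given above, is a ligand gene that was higher, as was Pcsk6. Pcsk6, a proprotein convertase gene that matures Nodal, measured 14.4, 15.6 and 16.6 FPKM in 2CLCs against 2.07, 2.43 and 1.99 in EpiSCs, a difference of 2.39 (SE 0.081, adjusted p = 1.9e-10). The BMP target Id3 stood at 11.4 to 14.7 FPKM in 2CLCs and 5.11 to 17 in EpiSCs and did not pass (adjusted p = 0.1), but without EpiSC replicate 1 its difference was 1.11 (adjusted p = 1.4e-06). Lefty2 did not pass on the deposited scale (adjusted p = 0.79) but passed as higher under both other scalings, as given above. Bmp4 (adjusted p = 0.088) passed as lower without EpiSC replicate 1 (-0.50) or without 2CLC replicate 3 (-0.48). In the WNT list 21 of 30 members were lower (70%) and 4 higher (13.3%), against 58.7% and 23.4% of all tested genes, and under median-of-ratios scaling 16 were lower and 8 higher. The nuclear effector Lef1 measured 0.0175, 0.0847 and 0.107 FPKM in 2CLCs against 12.2, 14 and 13.3 in EpiSCs, a difference of -3.72 (SE 0.079, adjusted p = 3.2e-12), and the receptor gene Fzd7 measured 2.92, 2.06 and 2.32 FPKM in 2CLCs against 71.2, 38.3 and 39.9 in EpiSCs, a difference of -3.84 (SE 0.19, adjusted p = 5.2e-09). Axin2, the feedback target often read as WNT output, was among the 4 higher genes and measured 13, 14.3 and 12.4 FPKM in 2CLCs against 3.01, 2.96 and 2.64 in EpiSCs, a difference of 1.88 (SE 0.12, adjusted p = 5.6e-08). In the first pair the 2CLC values lay far below the EpiSC values and in Axin2 above them. Tcf7l1, the repressor of naive genes, measured 9.24, 10.1 and 10.2 FPKM in 2CLCs against 52.6, 18.6 and 19.7 in EpiSCs, a difference of -1.37 (SE 0.29, adjusted p = 0.0011) that came to -0.55 (adjusted p = 0.11) under median-of-ratios scaling.

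The epithelial and mesenchymal list mixed lower adhesion and keratin genes with a few higher genes. Of its 26 tested members 19 were lower (73.1%) and 6 higher (23.1%), against 58.7% and 23.4% of all tested genes, and under median-of-ratios scaling 15 were lower and 7 higher. Epcam, an adhesion gene, measured 14, 13.5 and 12.8 FPKM in 2CLCs against 205, 171 and 177 in EpiSCs, a difference of -3.68 (SE 0.073, adjusted p = 1.9e-12). Cldn6, a tight junction gene, measured 4.45, 3.99 and 4 FPKM in 2CLCs against 142, 118 and 123 in EpiSCs, a difference of -4.64 (SE 0.096, adjusted p = 2.6e-12). The splicing regulator gene of epithelia Esrp1 measured 0.968, 0.861 and 0.458 FPKM in 2CLCs against 37.8, 27.2 and 27.2 in EpiSCs, a difference of -4.17 (SE 0.14, adjusted p = 2e-10). No 2CLC library came near the EpiSC level in these 3 genes. Cdh1 (E-cadherin) was present in both states and measured 80.3, 80.7 and 68.9 FPKM in 2CLCs against 179, 117 and 117 in EpiSCs, a difference of -0.81 (SE 0.14, adjusted p = 0.0002) that turned to 0.05 under median-of-ratios scaling. Snai1, the zinc finger repressor of E-cadherin, measured 107, 109 and 96 FPKM in 2CLCs against 0.996, 1.89 and 2.2 in EpiSCs, a difference of 5.31 (SE 0.17, adjusted p = 1.2e-10). Its 3 2CLC values were all above 90 FPKM, and ESCs stood at 1.77 ± 0.453 FPKM. Fn1 (fibronectin) stood at 97.3 to 99.4 FPKM in 2CLCs, 34.9 to 37.1 in EpiSCs and 109.6 ± 4.52 FPKM in ESCs, and Vim (vimentin) did not pass (adjusted p = 0.75, difference -0.10, and 0.76 under median-of-ratios scaling), while without EpiSC replicate 1 its difference was -0.56 (adjusted p = 6.9e-06).

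DNA methylation genes split between the enzymes and their cofactor. Of 18 members 13 were lower (72.2%, against 58.7% of all tested genes) and 4 higher, with 5 higher and 9 lower under median-of-ratios scaling. Besides Dnmt3b, the de novo enzyme gene Dnmt3a measured 2.74, 3.14 and 2.93 FPKM in 2CLCs against 32.6, 30.6 and 32.8 in EpiSCs, a difference of -3.07 (SE 0.21, adjusted p = 6.9e-08), and Dnmt3c stood at 0.429 to 0.556 FPKM in 2CLCs and 6.4 to 12.7 in EpiSCs. Dnmt3l, the cofactor without catalytic activity, measured 74.6, 80.9 and 79.8 FPKM in 2CLCs against 0.215, 0.523 and 0.14 in EpiSCs, a difference of 5.95 (SE 0.12, adjusted p = 2.6e-12), with ESCs at 122 ± 6.29 FPKM. Enzyme and cofactor thus moved apart, the enzymes lower and the cofactor higher in all 3 2CLC libraries. Zfp57, the zinc finger that protects imprints, measured 89.6, 92.3 and 106 FPKM in 2CLCs against 24.6, 27.9 and 27.4 in EpiSCs, a difference of 1.81 (SE 0.072, adjusted p = 7.4e-10). Tdg, which removes oxidised methylcytosine, stood at 6.03 to 6.84 FPKM in 2CLCs and 50.1 to 54.7 in EpiSCs. Tet2, an oxidase of methylcytosine, did not pass (adjusted p = 0.97), and its EpiSC libraries ranged from 0.561 to 8.52 FPKM with replicate 1 lowest. Without that library the Tet2 difference was -0.82 (adjusted p = 0.00026). Imprinted genes had no common direction, with 9 of 27 tested members higher (33.3%) and 15 lower (55.6%, against 58.7% of all tested genes), and 12 and 12 under median-of-ratios scaling. Grb10, a maternally expressed adaptor gene, measured 2.62, 2.9 and 2.14 FPKM in 2CLCs against 98.1, 112 and 112 in EpiSCs, a difference of -4.93 (SE 0.082, adjusted p = 3.7e-13). Meg3, a long non-coding RNA of the Dlk1 locus, measured 22.5, 22.8 and 24 FPKM in 2CLCs against 115, 111 and 116 in EpiSCs, a difference of -2.26 (SE 0.058, adjusted p = 1.7e-11). Both RNAs stood far lower in every 2CLC library. On the other side Plagl1, a paternally expressed zinc finger gene, measured 27.3, 27.6 and 28.5 FPKM in 2CLCs against 2.64, 3.47 and 2.18 in EpiSCs, a difference of 2.95 (SE 0.1, adjusted p = 2.6e-10), and Impact stood at 18.7 to 21.7 FPKM in 2CLCs and 1.92 to 2.14 in EpiSCs. ESCs stood near 2CLCs for Grb10 (2.22 ± 0.0845 FPKM) and Plagl1 (30.1 ± 1.15 FPKM).

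Hypoxia-inducible genes had the lowest median of all 37 lists, at -3.44, with 20 of 24 tested members lower (83.3%, against 58.7% of all tested genes) and 1 higher. EpiSC replicate 1 stood apart here: the list summed to 440.8 FPKM in it, to 2749 and 2783 in the other EpiSC libraries and to 309 to 369 in 2CLCs. Egln3, an oxygen-sensing hydroxylase gene, measured 0.417, 0.594 and 0.519 FPKM in 2CLCs against 15, 136 and 137 in EpiSCs, a difference of -5.47 (SE 0.64, adjusted p = 8.7e-06). Ddit4, an inhibitor of mTORC1, measured 18.8, 17.6 and 16 FPKM in 2CLCs against 50.8, 422 and 422 in EpiSCs, a difference of -3.51 (SE 0.63, adjusted p = 0.00029). Ndrg1 measured 1.38, 1.44 and 1.78 FPKM in 2CLCs against 12.2, 189 and 198 in EpiSCs, a difference of -4.97 (SE 0.8, adjusted p = 0.00012). In these 3 genes replicate 1 lay between the 2CLC libraries and the other EpiSC libraries, and the size of the gap depends on it, but no 2CLC value reached an EpiSC value. Bnip3, a mitophagy receptor gene, measured 8.72, 9.06 and 5.38 FPKM in 2CLCs against 36.4, 181 and 191 in EpiSCs, a difference of -3.68 (SE 0.5, adjusted p = 3.1e-05). Vegfa, the angiogenic ligand, measured 1.8, 2.19 and 2.21 FPKM in 2CLCs against 16.6, 60.5 and 61.4 in EpiSCs, a difference of -3.73 (SE 0.38, adjusted p = 2.5e-06). Without EpiSC replicate 1 the list had 21 members lower and 1 higher, with a median of -4.22. The higher member was P4ha2, a collagen prolyl hydroxylase gene, which measured 164, 190.1 and 125 FPKM in 2CLCs against 5.78, 66.1 and 70.5 in EpiSCs, a difference of 2.31 (SE 0.7, adjusted p = 0.0096). The size of this gap also depends on EpiSC replicate 1, by far the lowest EpiSC library for P4ha2.

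Promoters of 4 of these genes and of Slc16a3 are shown because the hypoxia response core ACGTGC stood in the 250 bases before the start of 11 of the 21 hypoxia-inducible genes with a RefSeq start (52.4%), in 5 of 21 glycolysis genes (23.8%) and in 877 of all 10942 (8.01%). It also stood before 6 of 15 germline genes (40%), a list without lower members, and a link between the match and direction was not tested. The windows of 80 bases lie at chr7:138909572-138909651 (minus strand), chr10:59323216-59323295 (plus), chr10:59951915-59951994 (minus), chr4:119108665-119108744 (plus) and chr11:120948987-120949066 (plus), with matches on either strand in capitals, and in Bnip3 a pair of matches overlaps.
Bnip3: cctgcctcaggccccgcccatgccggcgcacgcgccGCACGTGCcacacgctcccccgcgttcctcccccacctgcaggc
P4ha1: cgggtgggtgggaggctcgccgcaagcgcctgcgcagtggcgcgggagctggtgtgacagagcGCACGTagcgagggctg
Ddit4: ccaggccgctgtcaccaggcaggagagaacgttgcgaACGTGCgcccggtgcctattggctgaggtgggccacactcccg
Slc2a1: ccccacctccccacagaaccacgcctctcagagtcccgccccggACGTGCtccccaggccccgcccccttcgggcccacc
Slc16a3: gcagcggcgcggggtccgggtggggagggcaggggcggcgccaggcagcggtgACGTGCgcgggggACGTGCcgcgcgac
Of the 11 hypoxia-inducible genes with the motif, P4ha2 was higher in 2CLCs, Ak4 did not pass (adjusted p = 0.13) and the other 9 were lower. Ak4 passed as higher without EpiSC replicate 2 (1.03) or EpiSC replicate 3 (0.99), which leaves replicate 1 with 1 other library. With all libraries kept, Ak4 also passed as higher under median-of-ratios scaling (1.55, adjusted p = 0.0039). Lower members without a match in these bases included Vegfa and Egln3.

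Glycolysis genes followed the same order of libraries. Of 23 members 19 were lower (82.6%, against 58.7% of all tested genes) and 1 higher (4.35%, against 23.4%), with a median of -1.72. Under median-of-ratios scaling 14 were lower and 1 higher, with a median of -0.88. Without EpiSC replicate 1 there were 21 lower and none higher. The glucose transporter gene Slc2a1 measured 19.2, 18.5 and 20 FPKM in 2CLCs against 90.4, 494 and 508 in EpiSCs, a difference of -3.81 (SE 0.5, adjusted p = 2.5e-05). Hk2, the first kinase of the pathway, measured 5.74, 5.59 and 7.7 FPKM in 2CLCs against 45.9, 105 and 104 in EpiSCs, a difference of -3.47 (SE 0.26, adjusted p = 1.6e-07). Tpi1, triosephosphate isomerase, measured 36.8, 42.2 and 39.6 FPKM in 2CLCs against 283, 635 and 647 in EpiSCs, a difference of -3.60 (SE 0.25, adjusted p = 8.2e-08). In each of these genes EpiSC replicate 1 was the lowest EpiSC library and stayed above every 2CLC library. Ldha, which makes lactate, measured 245, 235 and 222 FPKM in 2CLCs against 725, 1617 and 1631 in EpiSCs, a difference of -2.40 (SE 0.24, adjusted p = 2.5e-06). Pkm, the last kinase, measured 766, 787 and 745 FPKM in 2CLCs against 1156, 1862 and 1875 in EpiSCs, a difference of -1.05 (SE 0.15, adjusted p = 4.2e-05) that came to -0.18 (adjusted p = 0.29) under median-of-ratios scaling. ESCs stood at 614 ± 10.3 FPKM for Ldha and 64.8 ± 0.584 FPKM for Hk2, both above 2CLCs. Among the lactate and pyruvate genes 13 of 22 were lower (59.1%, against 58.7% of all tested genes) and 6 higher (5 lower and 14 higher under median-of-ratios scaling). Slc16a3, the lactate exporter MCT4 and the gene with the widest gap on the lower side, measured 1.13, 1.08 and 0.85 FPKM in 2CLCs against 126, 224 and 163 in EpiSCs, a difference of -6.37 (SE 0.17, adjusted p = 2.8e-11), with ESCs at 3.87 ± 0.261 FPKM. Pdk1, the kinase that shuts off pyruvate entry to mitochondria, measured 0.926, 1.22 and 1.38 FPKM in 2CLCs against 17.9, 57.6 and 61.9 in EpiSCs, a difference of -4.25 (SE 0.35, adjusted p = 4.7e-07). Mpc2, a subunit of the mitochondrial pyruvate carrier, was higher and measured 19.4, 23.4 and 17 FPKM in 2CLCs against 4.76, 4.75 and 4.99 in EpiSCs, a difference of 1.84 (SE 0.1, adjusted p = 1.6e-08).

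**Figure D3:**
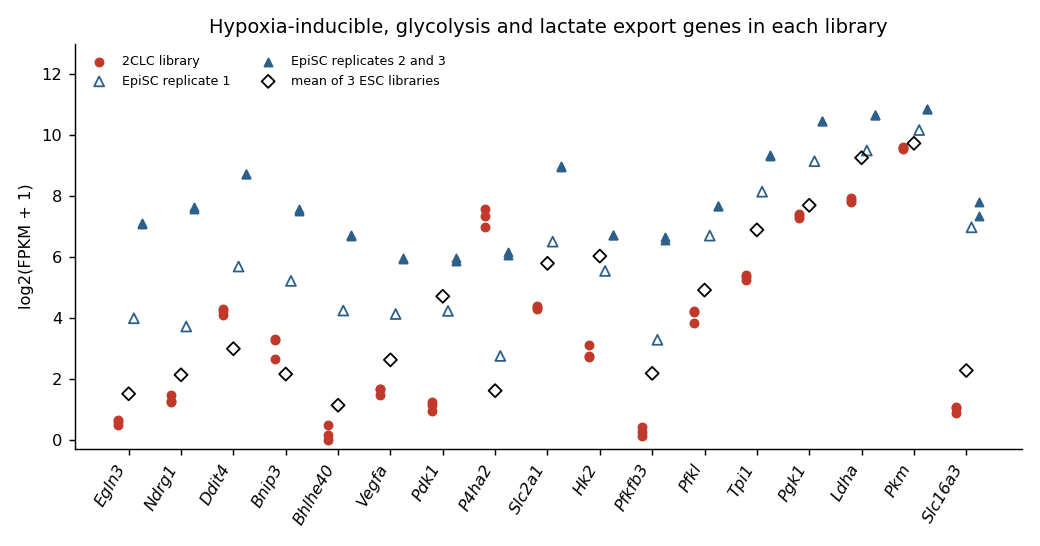
log2(FPKM + 1) of 17 hypoxia-inducible, glycolysis and lactate export genes in the 2CLC libraries (circles), EpiSC replicate 1 (open triangles) and EpiSC replicates 2 and 3 (filled triangles), with the ESC mean (diamonds). EpiSC replicate 1 lies below replicates 2 and 3 in all 17 genes and above the 2CLC libraries in all but P4ha2.

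Oxidative and biosynthetic genes took different courses. All 13 mitochondrially encoded mRNAs were higher in 2CLCs, with a median of 1.18, but under quantile normalization 5 were higher and 3 lower. Their sum took 7.37% ± 0.149 of all FPKM in 2CLCs, 3.97% ± 0.0613 in EpiSCs and 4.61% ± 0.0405 in ESCs (SD, n = 3). mt-Co1, a subunit of the terminal oxidase, measured 6429, 6494 and 5974 FPKM in 2CLCs against 2624, 2862 and 2817 in EpiSCs, a difference of 1.19 (SE 0.06, adjusted p = 5.6e-09) that turned to -0.16 under quantile normalization. Sterol and fatty acid synthesis genes were lower in 31 of 34 members (91.2%, against 58.7% of all tested genes) and higher in none. Their median was -1.89 (25 lower and 6 higher under median-of-ratios scaling). Insig1, the feedback regulator of SREBP processing, measured 16, 16.8 and 18.1 FPKM in 2CLCs against 121, 104 and 102 in EpiSCs, a difference of -2.61 (SE 0.077, adjusted p = 5.5e-11). Scd1, the stearoyl-CoA desaturase gene, measured 7.18, 6.86 and 7.84 FPKM in 2CLCs against 68, 56.8 and 56.9 in EpiSCs, a difference of -2.89 (SE 0.081, adjusted p = 3.8e-11). The 2CLC values lay below all EpiSC values in both genes, and ESCs stood between the states for Insig1 (22.8 ± 0.732 FPKM) and Scd1 (18.4 ± 1.39 FPKM).

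Amino acid genes differed one by one. Of 22 serine and one-carbon genes 5 were higher (22.7%) and 10 lower (45.5%, against 58.7% of all tested genes), with a median of -0.14 that turned to 0.70 under median-of-ratios scaling. Tdh, threonine dehydrogenase, known as the enzyme that naive ESCs depend on, measured 89.9, 90.8 and 127 FPKM in 2CLCs against 0.989, 2.02 and 1.94 in EpiSCs, a difference of 5.30 (SE 0.16, adjusted p = 7.8e-11), with ESCs at 269.8 ± 0.786 FPKM. Cth, which makes cysteine from cystathionine, measured 65.3, 71.3 and 69.4 FPKM in 2CLCs against 12.2, 4.92 and 5.4 in EpiSCs, a difference of 3.13 (SE 0.23, adjusted p = 1.6e-07). Psat1, an aminotransferase of serine synthesis, measured 64.9, 62.3 and 66.8 FPKM in 2CLCs against 226, 244 and 252 in EpiSCs, a difference of -1.88 (SE 0.053, adjusted p = 4.1e-11). Tdh and Cth thus stood high in 2CLCs and Psat1 in EpiSCs. Of 17 ATF4 targets, genes of the response to amino acid shortage, 3 were higher and 11 lower (64.7%, near the 58.7% of all tested genes), and 7 and 10 under median-of-ratios scaling. Asns, asparagine synthetase, measured 371, 366 and 382 FPKM in 2CLCs against 169, 177 and 179 in EpiSCs, a difference of 1.09 (SE 0.04, adjusted p = 4.2e-10), while Trib3, a feedback inhibitor in the same response, stood at 1.37 to 2.56 FPKM in 2CLCs and 12.8 to 28.1 in EpiSCs, and Slc7a3, a cationic amino acid transporter gene, at 6.13 to 9.61 and 129 to 159. Atf4 itself did not pass (adjusted p = 0.087, difference -0.10, and 0.77 under median-of-ratios scaling), but without EpiSC replicate 1 it passed at -0.13 (adjusted p = 0.0072). Of 21 p53 targets 1 was higher and 13 lower (61.9%, near the 58.7% of all tested genes), and the median of -0.73 turned to 0.058, with 8 higher and 7 lower, under median-of-ratios scaling. The higher gene was Pmaip1 (Noxa), which promotes apoptosis and measured 46.7, 49.9 and 47.1 FPKM in 2CLCs against 1.2, 0.387 and 0.414 in EpiSCs, a difference of 4.91 (SE 0.15, adjusted p = 6.8e-11). Its fellow Bbc3 (Puma) went the other way and measured 0.898, 1.17 and 1.08 FPKM in 2CLCs against 18.1, 60.9 and 66.2 in EpiSCs, a difference of -4.39 (SE 0.37, adjusted p = 5e-07). Cdkn1a, the inhibitor p21, measured 13.4, 16.4 and 14.7 FPKM in 2CLCs against 37.5, 81.3 and 84.1 in EpiSCs, a difference of -2.03 (SE 0.24, adjusted p = 8.9e-06).

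Of 25 G1 cyclin and CDK inhibitor genes 18 were lower (72%, against 58.7% of all tested genes) and 3 higher (12%), with a median of -1.19, and under median-of-ratios scaling 13 were lower and 8 higher. Ccnd1 (cyclin D1) measured 5.05, 5.99 and 7.16 FPKM in 2CLCs against 61.7, 28 and 28.1 in EpiSCs, a difference of -2.42 (SE 0.24, adjusted p = 2.3e-06), and Cdk6 stood at 1.04 to 1.5 FPKM in 2CLCs and 12.7 to 27.1 in EpiSCs. Cdkn2a, which encodes p16 and p19ARF, measured 15.8, 19.8 and 16.8 FPKM in 2CLCs against 1.44, 2.25 and 2.91 in EpiSCs, a difference of 2.55 (SE 0.14, adjusted p = 1.5e-08). DNA replication genes had 7 of 36 members higher (19.4%) and 25 lower (69.4%), and mitosis genes 5 of 30 higher (16.7%) and 21 lower (70%), against 23.4% and 58.7% of all tested genes. Their medians of -0.53 and -0.44 were near the -0.55 of all genes, and median-of-ratios scaling turned both, to 21 higher and 8 lower and to 19 higher and 3 lower. Few of them differed by 1 or more: 2 replication genes were higher and 8 lower by that much, and 0 mitosis genes were higher and 4 lower. Pcna, the replication clamp, measured 208, 214 and 228 FPKM in 2CLCs against 239, 217 and 222 in EpiSCs and did not pass (adjusted p = 0.33). Its difference was -0.06 as deposited. It passed as higher under median-of-ratios scaling (0.81, adjusted p = 1.1e-07) and as lower under quantile normalization (-0.48, adjusted p = 0.00028). Pola2, a subunit of the primase complex, had the widest gap of the replication genes and measured 11.6, 11.4 and 10.7 FPKM in 2CLCs against 52.8, 57.3 and 59.4 in EpiSCs, a difference of -2.24 (SE 0.055, adjusted p = 1.2e-11).

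Splicing genes held a pair of exceptional members. Of 46 core spliceosome genes 10 were higher (21.7%) and 29 lower (63%), near the 23.4% and 58.7% of all tested genes, with a median of -0.34, which turned to 0.53 with 38 higher and 3 lower under median-of-ratios scaling. Cwc22, which places the exon junction helicase EIF4A3 on the spliceosome, measured 1107, 1138 and 995 FPKM in 2CLCs against 25.6, 20.6 and 19.6 in EpiSCs, a difference of 5.57 (SE 0.09, adjusted p = 3e-13). Aqr, an intron-binding helicase gene, measured 449, 470.2 and 447 FPKM in 2CLCs against 59.8, 70.9 and 71.7 in EpiSCs, a difference of 2.74 (SE 0.065, adjusted p = 9.1e-12). Both genes were at least 6 times as high in the lowest 2CLC library as in the highest EpiSC library, and ESCs stood at 25.7 ± 1.03 FPKM and 42.1 ± 0.669 FPKM. SR and hnRNP genes had 8 of 39 members higher (20.5%) and 23 lower (59%), again near the shares of all genes, which median-of-ratios scaling turned to 21 and 9. Rbm25, a regulator of splice site choice, measured 217, 230.0 and 213 FPKM in 2CLCs against 78.3, 59.3 and 58 in EpiSCs, a difference of 1.75 (SE 0.096, adjusted p = 1.2e-08). Srsf2 measured 89.5, 83.1 and 99 FPKM in 2CLCs against 344, 191 and 209 in EpiSCs, a difference of -1.40 (SE 0.18, adjusted p = 1.7e-05). Ptbp2, the repressor of neuronal exons, measured 6.32, 8.38 and 6.18 FPKM in 2CLCs against 38.7, 31.6 and 30.1 in EpiSCs, a difference of -2.12 (SE 0.11, adjusted p = 1e-08). Among 19 writers and erasers of lactyl marks 5 were higher (26.3%) and 11 lower (57.9%), near the 23.4% and 58.7% of all genes (10 and 5 under median-of-ratios scaling). Ep300, an acyltransferase gene, stood at 15.1 to 15.4 FPKM in 2CLCs and 29.4 to 38.8 in EpiSCs, a difference of -1.03 (SE 0.095, adjusted p = 1.1e-06) that came to -0.19 (adjusted p = 0.079) under median-of-ratios scaling. Sirt1, a deacylase gene, measured 30.1, 33 and 31.1 FPKM in 2CLCs against 17.7, 8.52 and 6.94 in EpiSCs, a difference of 1.53 (SE 0.24, adjusted p = 9.4e-05).

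Translation factor genes also stood near the shares of all tested genes (23.4% and 58.7%): of 27 members 6 were higher (22.2%) and 16 lower (59.3%), and 21 and 5 under median-of-ratios scaling. Eif1b measured 3.36, 3.08 and 2.86 FPKM in 2CLCs against 34.5, 57.6 and 56.2 in EpiSCs, a difference of -3.59 (SE 0.16, adjusted p = 2.2e-09), and Eif2s2, a subunit of eIF2, stood at 316 to 318 FPKM in 2CLCs and 107 to 129 in EpiSCs, a difference of 1.42 (SE 0.062, adjusted p = 1.7e-09). Of 24 heat shock and ubiquitin genes 6 were higher (25%) and 11 lower (45.8%, against 58.7% of all tested genes), and 17 and 2 under median-of-ratios scaling. The inducible chaperone gene Hspa1a measured 20.6, 19.9 and 20.8 FPKM in 2CLCs against 0.0232, 0.0914 and 0.0155 in EpiSCs, a difference of 4.36 (SE 0.19, adjusted p = 1.4e-09). Hspa1b, its near-identical copy, measured 26.5, 28.6 and 27.7 FPKM in 2CLCs against 0.0246, 0.0976 and 0.0511 in EpiSCs, so the split between the copies is uncertain. Hspb1, a small heat shock protein gene, measured 403, 423 and 396 FPKM in 2CLCs against 81.1, 77.4 and 72.6 in EpiSCs, a difference of 2.39 (SE 0.069, adjusted p = 4.7e-11). Hspa5 (BiP), the chaperone of the endoplasmic reticulum, stood at 73 to 82.7 FPKM in 2CLCs and 116 to 215 in EpiSCs, a difference of -0.95 (SE 0.18, adjusted p = 0.00038) that came to -0.08 (adjusted p = 0.7) under median-of-ratios scaling.

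**Figure D4:**
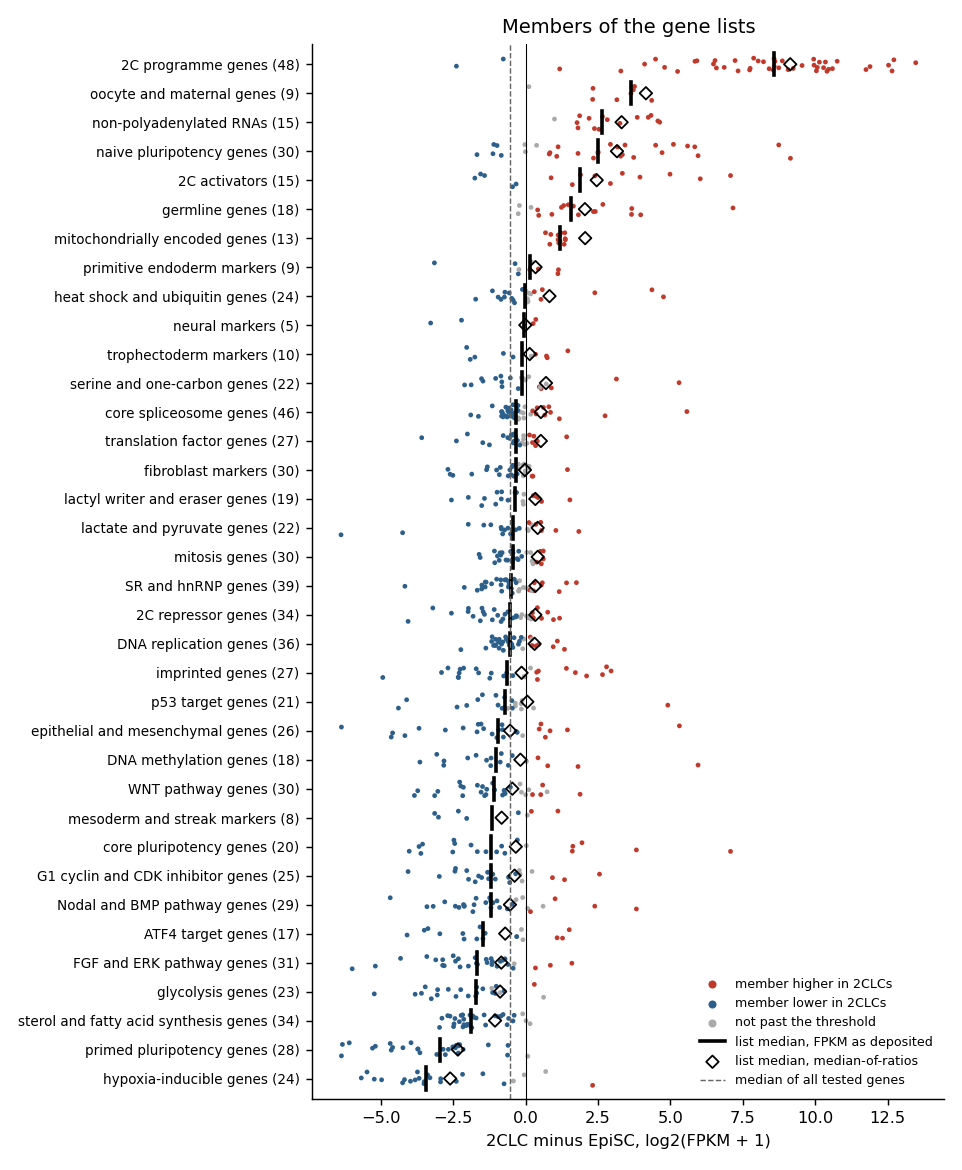
Difference of each tested member (2CLC minus EpiSC, log2(FPKM + 1), horizontal) for 36 gene lists, ordered by median, with colours for higher, lower and not past the threshold. Black bars are list medians on the deposited scale, diamonds those under median-of-ratios scaling, and the dashed line is the median of all tested genes at -0.55. The 2C, oocyte, germline, naive and mitochondrial lists lie right of 0 and the hypoxia, primed and sterol lists left of it on both scales, while the splicing, replication, mitosis and translation lists cross 0 between the scales.

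The ESC level was set beside that of both states. Of the 2472 genes higher in 2CLCs by at least 1, the ESC level lay nearer to EpiSCs for 58.5%, beyond EpiSCs for 18%, nearer to 2CLCs for 11% and beyond 2CLCs for 12.5%. Of the 5542 lower genes, ESCs lay nearer to EpiSCs for 42.2%, beyond them for 19.5%, nearer to 2CLCs for 31.5% and beyond them for 6.75%. These shares describe where the third state lay, on libraries shared with the comparison, and were not tested.

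Chromosomes differed in their share of changed genes. Of tested genes placed with GENCODE M21, 27.7% on chromosome 12 and 27.6% on chromosome 13 were higher in 2CLCs by at least 1, against 15.1% of all tested genes, and 48% on chromosome 15 were lower by at least 1, against 33.9%. To look past families of silent genes, 5500 genes with at least 5 FPKM in all 6 libraries were taken alone. Their median difference was -0.52 over all chromosomes, -0.20 on chromosome 8 (355 genes) and -0.85 on chromosome 15 (212 genes), and the medians of the other chromosomes lay between -0.59 and -0.34. Each 2CLC library showed this, with -0.17, -0.18 and -0.21 on chromosome 8 and -0.84, -0.88 and -0.86 on chromosome 15. ESCs minus EpiSCs, which share the EpiSC libraries with this comparison, gave 0.47 on chromosome 8 and -0.15 on chromosome 15 against 0.067 overall. In 2CLCs minus ESCs both chromosomes gave -0.69 against -0.60 overall. No DNA was measured, and copy number of these chromosomes was not tested.

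**Figure D5:**
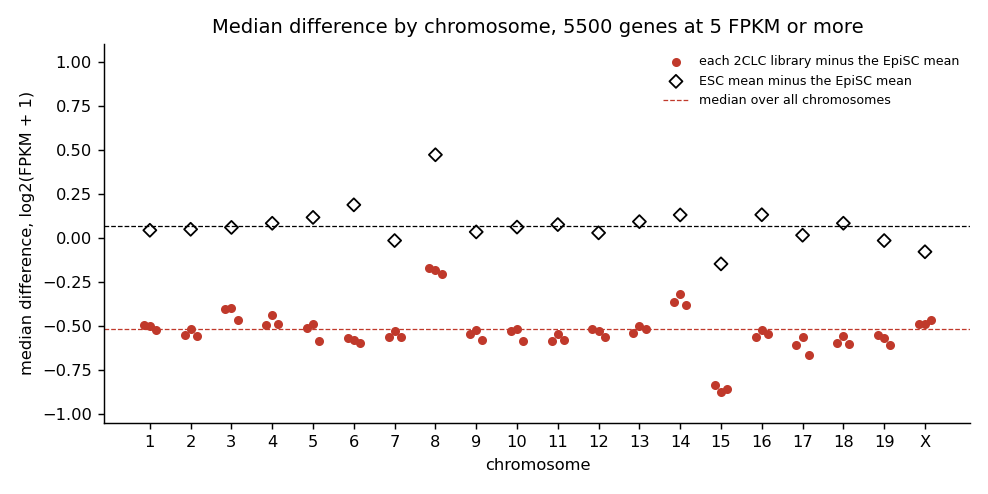
Median difference in log2(FPKM + 1) by chromosome for 5500 genes with at least 5 FPKM in all 6 libraries, for each 2CLC library against the EpiSC mean (circles) and for the ESC mean against the EpiSC mean (diamonds), with dashed lines at the medians over all chromosomes. Chromosome 8 stands above and chromosome 15 below the other chromosomes in every 2CLC library and in ESCs.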

How the data were processed

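FPKM per gene were deposited by the authors in a table of 4 cell states with 3 libraries each; HISAT2 2.0.4, StringTie 2.1.4 and mm10 are named in the submitters' processing notes. Values of the 35 names that stand more than once were summed, which left 21161 names. A gene was tested (16358) where 3 or more of 12 libraries reached 1 FPKM, on log2(FPKM + 1) with limma 3.58.1 (mean trend, all 4 states in 1 fit, Benjamini-Hochberg adjustment over all tested genes, threshold 0.05) in R 4.3.3, after a check on simulated data. The members and lists were chosen with earlier results of these data known. Named genes were, per direction, the 12 largest differences among genes past the threshold whose higher state reached 5 FPKM, with no overlap between libraries and a unique name other than a predicted-gene or clone name, and per list the first 4 written and up to 6 further members with the largest differences; Pcna, Il6st, Trim8 and some other members, and the genes in motif counts, were named after their values were seen. Library totals were 518399 to 519915 FPKM in 2CLCs and 398477 to 430314 in EpiSCs. Alternatives varied the pseudocount, filter, scaling, fit, block and replicates. Gene positions came from GENCODE M21 and promoter windows from RefSeq (GRCm38.p6), read with Python 3.11.15. The other 9 libraries of the series were not used here. MEF libraries entered the filter and the shared spread of the fit, and MEF levels are given only for the marker check and the 2C list median.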

Additional observations from a re-analysis of the deposited data

How the results depend on the processing

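The deposited FPKM give no read depth, so counting error is unknown, and 3 libraries a group limit the precision. Besides 2472 genes higher and 5542 lower with a minimum change of 1, the count of higher genes moved to 2493 with a filter of 5 FPKM, where 7344 were lower. It moved to 6814 under median-of-ratios scaling, where 5916 were lower. Without single replicates the higher count ranged from 2297 to 4024 and the lower count from 9012 to 9413. The low end came from the filter, which needs 3 libraries: with the same genes tested, an alternative chosen after seeing the data, leaving out single 2CLC replicates gave 3669 to 3788 higher and 9358 to 9439 lower. With a replicate block 3810 were higher and 9563 lower, and no named call changed; same-numbered libraries did not deviate together (r = -0.029, 0.020 and -0.054), so the numbers do not pair them. Other alternatives gave 3279 to 5125 higher and 8173 to 11066 lower. Under median-of-ratios scaling the difference turned for Atf4 (0.77), Cdh1 (0.054), Nfyc (0.40), Pcna (0.81), Pou5f1 (0.59), Sox2 (0.017), Trp53 (0.54) and Vim (0.76), and under quantile normalization for mt-Co1 (-0.16). The calls of Pou5f1 (adjusted p = 0.053) and Nfyc (adjusted p = 0.077) were lost in a fit of only the 2 groups. List medians that turned under median-of-ratios scaling were those of 2C repressors (0.33), trophectoderm markers (0.14), lactate and pyruvate (0.42), serine (0.70), p53 (0.058), replication (0.31), mitosis (0.42), spliceosome (0.53), SR and hnRNP (0.34), lactyl (0.33), translation (0.52) and heat shock genes (0.82). The serine median was 0.14 under quantile normalization. The heat shock median was 0.0026 with a filter of 5 FPKM and -0.058 to 0.015 without single replicates, highest without EpiSC replicate 1. The primitive endoderm median, 0.14 as reported, was -0.043 with a filter of 5 FPKM and -0.067 to 0.16 without single replicates, below 0 without any of the 2CLC replicates. Tet2 ranged from -0.82 to 0.48 without single replicates, lowest without EpiSC replicate 1. The cause of these changes was not tested.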
